A study of Mus musculus with 42 samples.

Results

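The young to adult change of gene expression in quadriceps muscle of C3KO mice was measured on 11 of the 42 arrays of the series, chosen by the muscle, genotype and age in their titles. They hold 7 adult mice of 11 to 12 months and 4 young mice of 2 to 3 months, with 1 array per mouse. C3KO, read here from general knowledge, is a knockout of Capn3, the gene of the muscle protease calpain 3. All mice carry the same strain label, heterozygotes of a cross of 129 SvEvBrd and C57BL/6, and Affymetrix mouse arrays were hybridised with labelled total RNA of the whole muscle. The same ages of wild type (wt) quadriceps, 6 adult and 4 young arrays, and soleus arrays of the same C3KO mice (6 adult, 4 young) are set beside them. No treatment is named in the labels, and the labels do not describe how the deletion was made, which parts of Capn3 it removes or whether Capn3 is absent from tissues other than muscle.

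Calpain 3 is a protease that binds the giant elastic protein titin in the sarcomere, and its loss in humans causes a limb girdle muscular dystrophy. Between the young and the adult age studied here a mouse muscle leaves its phase of growth: synthesis of the collagens that build the connective tissue around the fibres is high in growing muscle, and the insulin-like growth factor pathway and several imprinted genes act in growth. Genes of strain and damage, interferon-induced genes and genes of fat cells are other groups known to vary between muscles of healthy and dystrophic animals.

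Adult minus young differences are on the log2 scale, so that 1 unit is a doubling, and carry the standard error (SE) of the fit. They rest on 7 adult and 4 young arrays unless stated. A gene is said to have risen or fallen where its adjusted p, from limma with the Benjamini-Hochberg method over all 11915 genes tested, was under 0.05.

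Capn3 lay at 4.34, 4.38, 4.32 and 4.49 (log2 level) in young mice J4-1, J4-2, H4-1 and H4-2, and between 4.02 and 4.65 in the adult C3KO mice. All 10 wt arrays read between 9.89 and 10.30, so every C3KO label was borne out by the level of the targeted gene. The deposited values were nearly level between the 11 arrays, with array medians of 4.39 to 4.43, and no total intensity or count of depth comes with such a table. Differences between control probe sets at both ends of the actin and Gapdh transcripts, a sign of RNA integrity, differed between the ages by -0.03 and -0.03 (exact two-sided permutation p = 0.679 and 0.573). Fast fibre genes averaged between 13.42 and 13.56 on the 11 arrays. Slow fibre genes ranged more widely, from 6.80 to 9.80 in adults and from 6.94 to 8.85 in young mice, with overlap. A code at the start of the description divides the adults: the 4 Q2 mice carry 1-1, while the 3 U2 mice and all 4 young mice carry 1-3. What the code stands for is not given in the sources used here, so values of the U2 mice, the adults that share the code of the young mice, are given beside many of the results.

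Of the 11915 genes, 137 changed between the ages (1.15%): 53 rose (0.445%) and 84 fell (0.705%). Changes of over 2-fold were seen for 22 of them, 10 higher and 12 lower in adults, and the median size of the 137 changes was 0.69. Adult and young arrays did not overlap for 95 of the 137 genes, against 280 of all genes tested (2.35%; 1.16% with adults higher and 1.19% with adults lower). The U2 mice differed from the young mice in the same direction as all adults together for all 137 genes. These genes were chosen on the same arrays, the U2 mice included, so shared direction and lack of overlap are partly built in. The distance of the U2 mice from the young mice was smaller than that of the Q2 mice for 109 genes, with a median of 0.59 against 0.79. With the code as a block 18 genes passed, 16 of them among the 137, and with arrays of code 1-3 alone 13 passed, 12 of them among the 137. Of the 30 genes with the largest changes, 15 in each direction, 7 passed with the code as a block and 8 with arrays of code 1-3 alone. The count also moved with single young mice: it was 33 without J4-1, 37 without J4-2 and 57 without H4-2, and among adults 80 without Q2-1 and 77 without Q2-3. Without both J4 mice no gene passed (783 had an unadjusted p under 0.05 in limma). All 137 kept their direction, which their choice on these arrays makes likely.

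**Figure D1:**
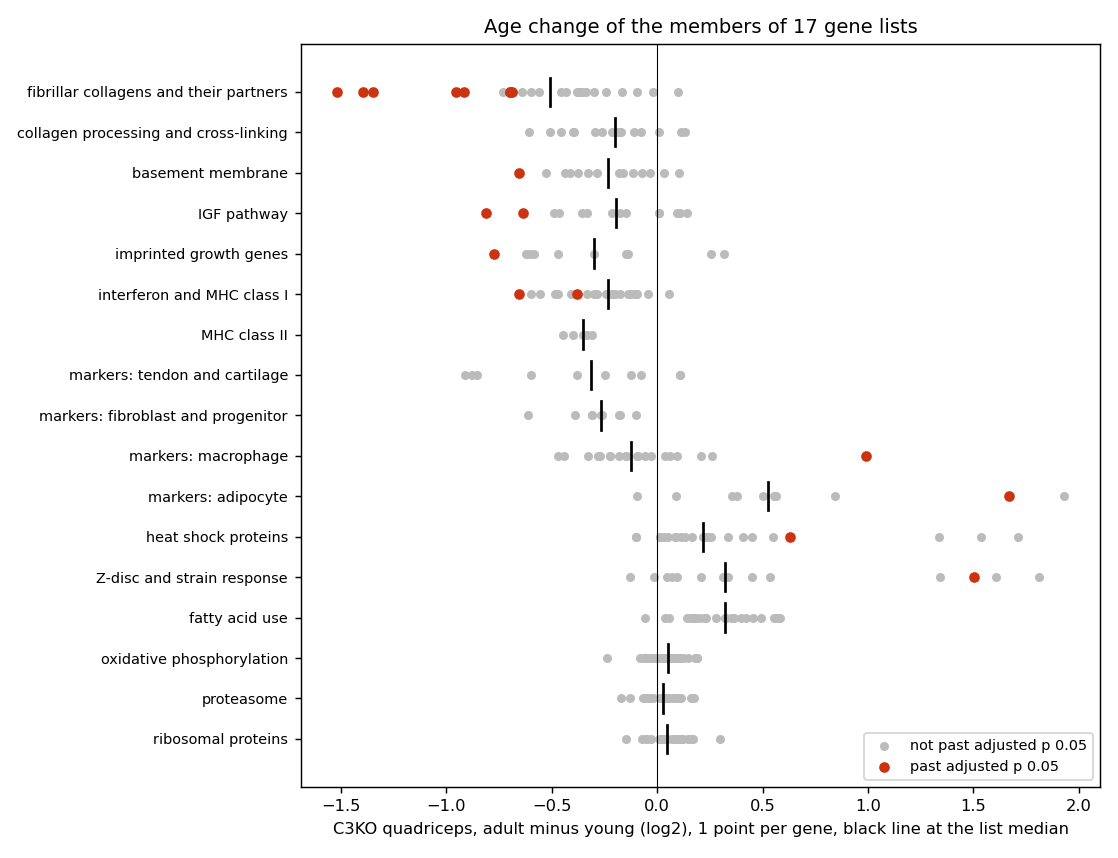
Adult minus young log2 change in C3KO quadriceps for each tested member of 17 gene lists, 1 point per gene, red where the adjusted p is under 0.05 and black lines at list medians. Fibrillar collagens and their partners hold 8 of the red points, all below 0, while oxidative phosphorylation, proteasome and ribosomal protein genes hold none and lie close to 0.

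Genes of the connective tissue matrix gave the largest number of falls among the 49 lists examined. In the list of fibrillar collagens and their partners, 8 of 26 tested members fell and none rose, 25 of 26 differences were below 0, and the median difference was -0.51. Leaving out 1 array at a time gave 4 to 10 falls, the fewest without J4-2. The median over all genes tested was 0.01, and the background of falls was the 0.705% above. The 8 were Col1a1 and Col1a2, the chains of type I collagen, Col3a1 of type III, Col5a1, Col5a2 and Col5a3 of type V, and Col6a1 and Col6a3 of type VI, the microfibrillar collagen whose mutation causes a congenital muscular dystrophy.

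Col1a1 read 8.99, 9.30, 9.30 and 8.92 in the young mice J4-1, J4-2, H4-1 and H4-2, against 6.90, 7.49 and 8.34 as the lowest, median and highest of the 7 adults. No adult array reached the lowest young array. The difference was -1.52 ± 0.22 (adjusted p = 0.000745), a 2.86-fold lower level. Its partner chain Col1a2 read 10.98, 11.21, 11.04 and 11.00 in young mice and 9.24, 9.69 and 10.36 (lowest, median, highest) in adults. These groups did not overlap either, and the difference was -1.35 ± 0.18 (adjusted p = 0.000568). Col3a1, the collagen of fine reticular fibres, read 11.75, 11.47, 11.58 and 11.51 in young mice against 9.49, 9.97 and 10.84 in adults, again without overlap, a difference of -1.39 ± 0.20 (adjusted p = 0.000745). The type V chains, which set the width of type I fibrils, differed by -0.95 ± 0.16 for Col5a2, -0.91 ± 0.20 for Col5a3 and -0.69 ± 0.17 for Col5a1. Col6a1 and Col6a3 both fell by 0.70. Among the U2 mice alone, levels of Col1a1 (7.49 to 8.34), Col1a2 (9.69 to 10.36) and Col3a1 (9.97 to 10.84) were also below every young mouse. These 3 genes passed when the code was a block and with arrays of code 1-3 alone, where Col1a1 differed by -1.12 (adjusted p = 0.0306), Col1a2 by -0.999 (adjusted p = 0.0187) and Col3a1 by -1.11 (adjusted p = 0.024).

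**Figure D2:**
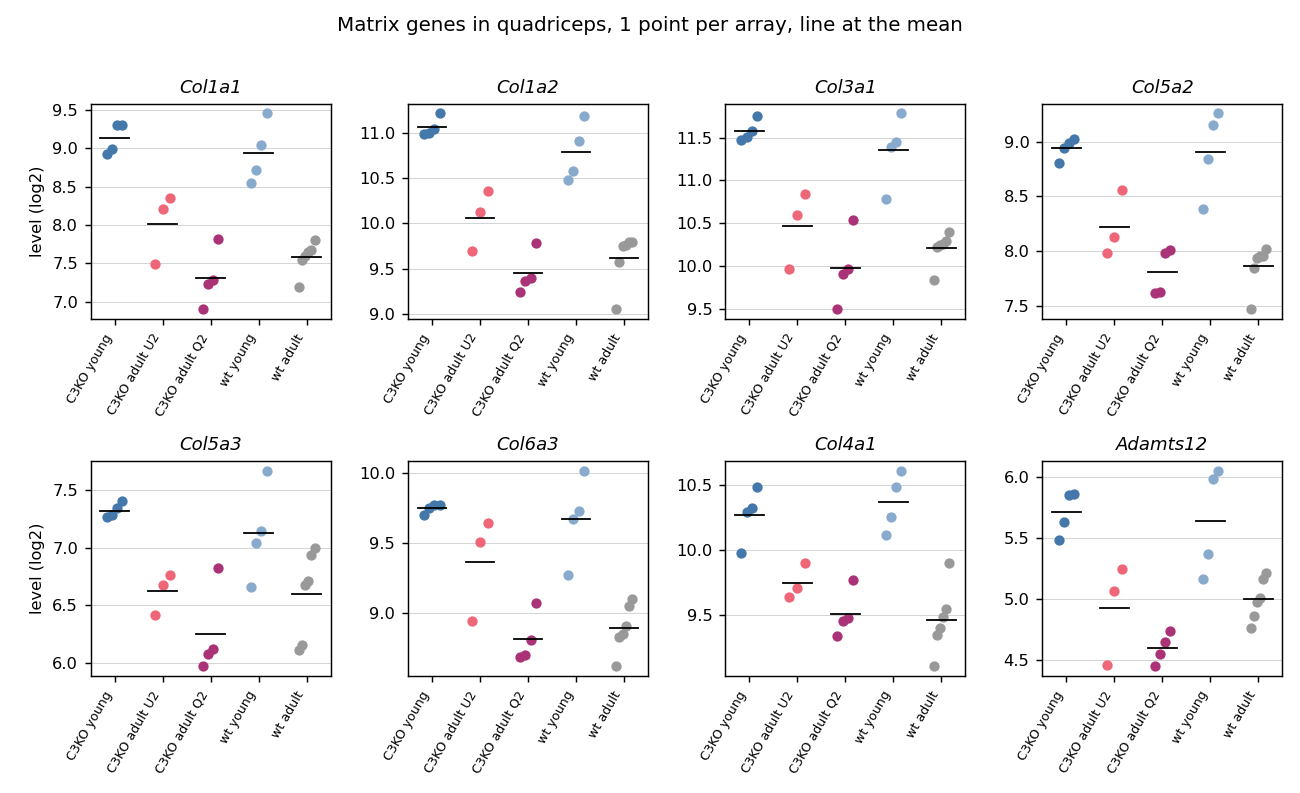
Log2 levels of 8 matrix genes in quadriceps, 1 point per array and a line at the group mean, for young C3KO, adult C3KO of the U2 and Q2 mice, young wt and adult wt. Adult C3KO arrays lie below all young C3KO arrays for each of the 8 genes, the Q2 mice mostly lower than the U2 mice, and wt mice show the same order of ages.

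Of 14 basement membrane genes 1 fell, Col4a1, which encodes a chain of the type IV collagen network: 10.29, 10.48, 9.98 and 10.32 in young mice, 9.34 to 9.90 in adults, a difference of -0.66 ± 0.13 (adjusted p = 0.0155). The list's median was -0.23, and -0.05 among arrays of code 1-3. None of 16 genes of collagen processing and cross-linking passed, with a median of -0.20 (-0.04 among arrays of code 1-3), and Pcolce, the enhancer of procollagen cleavage, differed by -0.51 (adjusted p = 0.198). Adamts12, a secreted metalloprotease, fell by 0.98, from 5.49 to 5.87 in young mice to 4.44 to 5.24 in adults (adjusted p = 0.00547). Cd44, the receptor of hyaluronan, and Fstl1, a secreted follistatin-like protein, also fell, by 0.91 and 0.63. These last 2 were named after their values were seen. Adamts12, Cd44 and Fstl1 did not pass with the code as a block or among arrays of code 1-3 (adjusted p = 0.0645 or more). The list of fibroblast and progenitor markers had no member past the test among 9, all 9 differences were below 0 (median -0.26), and its median was -0.01 for the U2 mice and -0.49 for the Q2 mice. Its mean level was 7.60 to 8.29 in adults and 8.04 to 8.23 in young mice. Tendon and cartilage markers likewise had none of 10 past the test, a median of -0.31, and Tnmd, the tenocyte gene tenomodulin, at -0.85 (adjusted p = 0.0665). In whole muscle, fewer cells of a type and less RNA per cell cannot be told apart, and the part of these markers in the collagen result was not tested.

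Growth-related genes moved in small numbers. Actc1, the cardiac actin that skeletal muscle uses before birth and during regeneration, had the largest fall of all genes named here: 12.99 and 12.99 in the J4 mice, 11.72 and 11.31 in H4-1 and H4-2, and 9.87, 10.30 and 10.92 (lowest, median, highest) in adults. The ages did not overlap, but the J4 mice stood above the H4 mice by more than the H4 mice stood above the highest adult. The difference was -1.96 ± 0.35 (adjusted p = 0.00844), and it no longer passed without J4-1 or without J4-2. It was the 1 member of 9 developmental muscle genes that changed, in a list with a median of -0.05. Tnnt2, the cardiac troponin T of early muscle, differed by 0.66 the other way without passing (adjusted p = 0.169).

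In the IGF pathway 2 of 14 genes fell and none rose (median -0.19), and none passed without Q2-1, when the code was a block or among arrays of code 1-3. The 2 that fell also both missed the threshold without Q2-2, Q2-3, J4-1, J4-2 or H4-2. Igf1, the growth factor itself, read 9.29, 9.25, 9.01 and 9.33 in young mice and 7.97, 8.14 and 9.05 in adults, with 1 adult array above the lowest young one, a difference of -0.81 ± 0.19 (adjusted p = 0.0306). Irs1, which carries the signal of the IGF and insulin receptors into the cell, differed by -0.64 ± 0.16 (adjusted p = 0.0462). Igf1 passed in 5 and Irs1 in 2 of the 11 fits without 1 array. Among 11 imprinted growth genes 1 fell, Cdkn1c, the cell cycle inhibitor that is expressed from the maternal copy. It read 7.95, 7.91, 7.51 and 7.85 in young mice and 6.76 to 7.25 in adults. The difference was -0.77 ± 0.10 (adjusted p = 0.000402), and it passed in every fit that left out 1 array, with the code as a block, and with arrays of code 1-3 alone (-0.78, adjusted p = 0.0187). Others of the list were lower without passing: Plagl1 -0.62 (adjusted p = 0.0848), Ndn -0.59 (adjusted p = 0.0918) and Meg3 -0.60 (adjusted p = 0.132), with a list median of -0.30. The Meg3 value is that of the brightest of its 9 probe sets, and the others ranged from -0.06 to -1.23.

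Of 16 cell cycle genes 1 fell, Ccnd2, which encodes cyclin D2 (-0.58 ± 0.10, adjusted p = 0.00844), and its young arrays, 7.30 to 7.67, lay above all adult arrays, which reached 7.06 at most. Ccnd1, another D-type cyclin, was at -0.37 (adjusted p = 0.116), with its other probe sets at -0.42 and -0.78. Of 14 cell cycle inhibitors and p53 targets 1 fell, Cdkn1b (-0.46 ± 0.09, adjusted p = 0.0118). The medians of both lists were 0.02 and 0.07.

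Some interferon-induced genes also fell. Interferons switch on antiviral genes through a promoter element, the interferon-stimulated response element, to which the STAT and IRF factors bind. Its letters were searched as GAAA, any 2 bases and GAAA again on both strands, in the 300 bases from 250 before to 50 after each start of transcription in the RefSeq promoter table (GRCm38.p6). The 120 bases before the start are shown for 4 interferon-induced genes that fell and hold the motif, with the motif in capitals. These 4 were chosen because they fell and hold it, so what they share is not a result.
Gbp7, chr3:142530216-142530335, plus strand: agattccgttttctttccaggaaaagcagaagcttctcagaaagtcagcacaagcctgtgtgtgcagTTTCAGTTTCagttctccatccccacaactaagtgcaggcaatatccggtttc
Gbp3, chr3:142559924-142560043, plus strand: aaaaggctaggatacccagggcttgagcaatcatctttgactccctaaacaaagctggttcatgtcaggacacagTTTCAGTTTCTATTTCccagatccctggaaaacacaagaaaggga
Oas1a, chr5:120907526-120907645, minus strand: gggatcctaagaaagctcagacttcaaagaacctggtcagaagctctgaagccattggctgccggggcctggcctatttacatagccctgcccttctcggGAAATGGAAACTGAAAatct
Trim30a, chr7:104465194-104465313, minus strand: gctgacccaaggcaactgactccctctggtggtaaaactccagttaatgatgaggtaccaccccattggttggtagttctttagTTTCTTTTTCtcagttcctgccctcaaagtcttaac
Gbp3 and Oas1a each hold 2 overlapping matches, Gbp7 and Trim30a hold 1 in the promoter shown, and the first bases of the matches lie between -53 and -14 from the start. Gbp3 and Trim30a have 2 starts in the table, and the one shown for each is a start with a match. The motif is in 3.44% of all 32851 promoters of that table and in 7 of the 19 tested members of the list of interferon and MHC class I genes that have a promoter there. Ifi47, which also fell, has no match in this window, and Iigp1 and Rtp4 were not analysed here. A match describes the letters and is not a measured binding site.

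The guanylate-binding protein Gbp7, an interferon-induced GTPase of cell defence, read 7.68, 7.39, 7.25 and 7.23 in young mice and 5.25, 6.05 and 6.81 (lowest, median, highest) in adults. No adult array reached a young one. The difference was -1.33 ± 0.23 (adjusted p = 0.00658), it passed in each of the 11 fits without 1 array, and it was -1.14 with arrays of code 1-3 alone (adjusted p = 0.0187). Iigp1, an immunity-related GTPase, showed a larger but uneven difference: 9.41, 7.59 and 9.04 in J4-1, J4-2 and H4-2, 6.40 in H4-1, and 5.89 to 6.68 in adults. Mouse H4-1 thus lay within the adult range, and the difference of -1.69 ± 0.39 (adjusted p = 0.0314) passed in 5 of the 11 fits without 1 array. It did not pass without Q2-1, Q2-3, Q2-4, J4-1, J4-2 or H4-2. Ifi47, a GTPase of the same family, read 6.52, 6.14, 6.12 and 6.44 against 5.51 to 5.82, a difference of -0.59 ± 0.12 (adjusted p = 0.0119). Gbp3 differed by -0.80 ± 0.19 (adjusted p = 0.0349) and Trim30a, an interferon-induced ubiquitin ligase of the tripartite motif family, by -0.65 ± 0.14 (adjusted p = 0.0252). Gbp3, Ifi47 and Trim30a were named after their values were seen. They passed in 6, 9 and 8 of the 11 fits without 1 array. None of the 3 passed with the code as a block or among arrays of code 1-3 (adjusted p = 0.0645 or more).

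In the list of interferon and MHC class I genes 2 of 22 fell, 21 of 22 differences were below 0 and the median was -0.23. The 2 were Rtp4, a chaperone of receptors (6.41 to 6.87 in young mice, 5.73 to 6.32 in adults, -0.66 ± 0.15, adjusted p = 0.0256), and Oas1a, an oligoadenylate synthetase (6.07 to 6.27 against 5.52 to 6.02, -0.38 ± 0.09, adjusted p = 0.0436). Neither array group overlapped the other in these genes. Members that did not pass included Ifit1 at -0.48 (adjusted p = 0.0724), Gbp2 at -0.55 (adjusted p = 0.181), Rsad2 at -0.47 (adjusted p = 0.131) and Oasl2 at -0.60 (adjusted p = 0.189). The mean level of the 22 genes was 6.55 to 6.86 in young mice and 6.27 to 6.61 in adults, with 6.27 to 6.61 in the U2 mice. With the code as a block, or without Q2-1, none of the 22 passed, and the medians were -0.28 with the code as a block and -0.22 with arrays of code 1-3. Rtp4 and Oas1a also both missed the threshold without J4-1, J4-2 or H4-2. Rtp4 passed in 7 and Oas1a in 3 of the 11 fits without 1 array. All 5 MHC class II genes tested were below 0 with none past the test (median -0.35), and their mean level overlapped between the ages, 7.47 to 8.20 in adults and 7.90 to 8.39 in young mice. Lymphocyte markers had none of 7 past the test, with a median of 0.02.

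**Figure D3:**
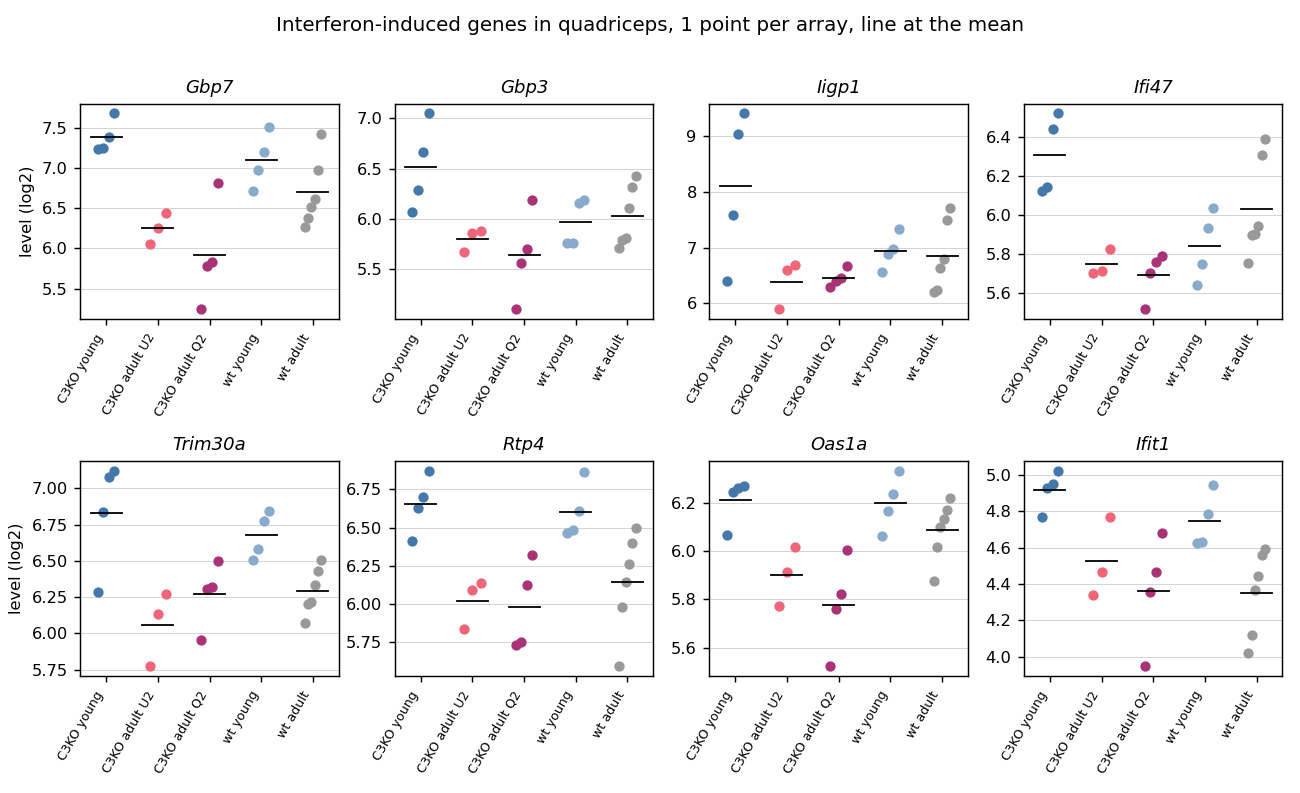
Log2 levels of 8 interferon-induced genes in quadriceps, 1 point per array and a line at the group mean, in the same 5 sets of arrays. Young C3KO arrays are the highest set by mean for 8 genes, 1 of 4 young arrays lies in the adult range for Iigp1, and the wt changes of Gbp7, Gbp3, Iigp1 and Ifi47 lie between -0.40 and 0.19.

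Among the largest rises, Dkk3, a secreted protein of the Dickkopf family, read 6.36, 7.03, 6.95 and 6.55 in young mice and 7.88, 8.35 and 8.95 (lowest, median, highest) in adults. Every adult array lay above every young one. The rise was 1.68 ± 0.24 (3.20-fold, adjusted p = 0.000745), with 1.71 for the arrays of code 1-3 alone (adjusted p = 0.024). Amy1, an amylase that cuts starch and glycogen, read 9.52, 9.17, 9.63 and 9.97 in young mice and 10.50, 10.53 and 10.82 in adults, a rise of 1.04 ± 0.13 (adjusted p = 0.000159), again with no overlap. Npr3, the receptor that clears natriuretic peptides, rose by 1.35 ± 0.26, from 4.78 to 5.47 in young mice to 5.98 to 7.34 in adults (adjusted p = 0.0104). Kcnab1, a regulatory subunit of voltage-gated potassium channels, rose by 1.05 ± 0.18, from 6.77 to 7.32 to a range of 7.36 to 8.58 (adjusted p = 0.00505). Further rises were those of Stk26, a kinase of the Ste20 family (1.07 ± 0.19), Pkp2, the desmosomal protein plakophilin 2 (0.99 ± 0.21), Ak4, a mitochondrial adenylate kinase (0.97 ± 0.22), and Atp13a5, a P-type ATPase (0.95 ± 0.17). Adult and young arrays did not overlap for Ak4 and Atp13a5. They overlapped for Stk26, where U2-2 at 6.19 lay within the young range, and for Pkp2. Dkk3 and Amy1 passed with the code as a block and among arrays of code 1-3. Npr3, Kcnab1, Stk26, Pkp2, Ak4 and Atp13a5 passed in neither setting (adjusted p = 0.0631 or more). Another 3 genes, outside the 30 largest, also passed both when the code was a block and among code 1-3 arrays, and were chosen after their values were seen. Aldh1a1, which makes retinoic acid, rose by 0.80 ± 0.10 (0.77 within code 1-3). Tmem37, a transmembrane protein, rose by 0.91 ± 0.17, and Snhg16, a host gene of small nucleolar RNAs, by 0.89 ± 0.19.

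Among the other large rises, Xirp1, an actin-binding Xin repeat protein that appears in injured and regenerating fibres, read 7.24, 7.95, 7.86 and 7.57 in young mice and had a lowest value of 7.93 and a median of 9.51 in adults. All 4 Q2 mice, at 8.80 or more, lay above the young mice, and the U2 mice spread from 7.93 to 9.99, so that 1 of them lay within the young range. The level was 2.83-fold higher in adults (SE 0.34 on the log2 scale, adjusted p = 0.0295), and with arrays of code 1-3 alone the difference was 1.02 (adjusted p = 0.489). Lmcd1, a LIM domain protein, showed the same order of arrays: 8.99 to 9.33 in young mice, 10.04 to 10.95 in Q2 and 9.32 to 11.18 in U2, a rise of 1.20 ± 0.27 (adjusted p = 0.0252). Tnfrsf12a, the receptor Fn14 of the cytokine TWEAK that is induced in injured muscle, read 7.72, 7.60, 7.46 and 8.04 in young mice, 8.42 to 9.53 in Q2 and 7.88 to 9.34 in U2, a rise of 1.15 ± 0.25 (adjusted p = 0.0253). None of these 3 passed with the code as a block. Rgcc, a regulator of the cell cycle, rose by 0.93 ± 0.19 (adjusted p = 0.0135), and Lrrc52, a leucine-rich repeat protein, also passed (adjusted p = 0.0338). Lrrc52 did not exceed the array median in any of the 4 young mice, 3.17 to 4.37, against 3.89 to 6.09 in adults, so the size of its difference is uncertain and it entered the test through other arrays.

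Xirp1 was the 1 member of 14 Z-disc and strain response genes that changed, in a list with a median of 0.32. Other members had large differences without passing: Csrp3, the muscle LIM protein, by 1.81 ± 0.61 (adjusted p = 0.195), Ankrd2 by 1.61 ± 0.49 (adjusted p = 0.136) and Ankrd1 by 1.34 ± 0.39 (adjusted p = 0.107), the last 2 being ankyrin repeat proteins of stretched muscle. Csrp3 read 8.70, 7.75, 6.46 and 8.96 in young mice and 8.26 to 10.97 in adults, overlapping ranges with a wide spread at both ages. Csrp3 and Ankrd2 are also in the slow fibre list, where all 13 tested members were above 0 and none passed (median 0.39). This median was 0.07 among arrays of code 1-3 and ranged from -0.01 to 0.82 when single arrays were left out. Slow fibre levels varied between arrays of 1 age, as given above, and their part in the strain genes was not tested.

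Lgals3, which encodes galectin 3, a lectin of macrophages and of regenerating fibres, read between 6.25 and 6.95 in the 4 young mice and 7.26, 7.39 and 8.35 in adults. The ages did not overlap, and the rise was 0.99 ± 0.18 (adjusted p = 0.00952), with 0.996 among arrays of code 1-3 (adjusted p = 0.0474). It did not pass when the code was a block (adjusted p = 0.0681) or without J4-2 (adjusted p = 0.0584). It was the 1 member of 20 macrophage markers to change. The list had 14 members below 0, a median of -0.12, and mean levels of 6.55 to 7.17 in adults and 6.74 to 7.03 in young mice, and Mrc1, a receptor of resident macrophages, differed by -0.47 (adjusted p = 0.404). Among 13 genes of denervation and the neuromuscular junction, Musk rose, the receptor kinase that gathers acetylcholine receptors at the synapse: 4.93, 4.63, 5.22 and 5.28 in young mice, 5.59 to 5.79 in adults, a difference of 0.67 ± 0.13 (adjusted p = 0.0104). The list's median was close to 0 and Dok7, the adaptor of MuSK, was at 0.36 (adjusted p = 0.0904).

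**Figure D4:**
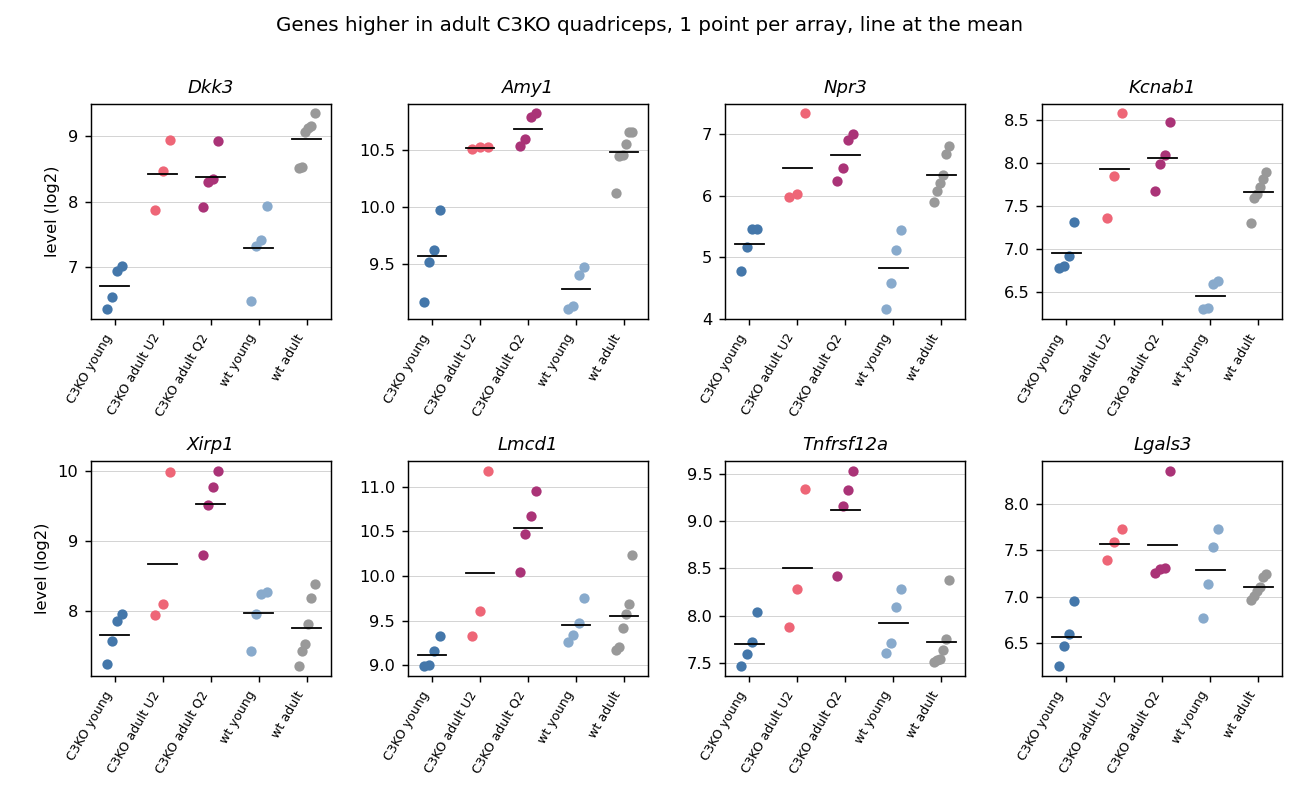
Log2 levels of 8 genes that rose in adult C3KO quadriceps, 1 point per array and a line at the group mean, in the same 5 sets of arrays. Dkk3, Amy1, Npr3 and Kcnab1 are higher in adults of both genotypes, while Xirp1, Lmcd1, Tnfrsf12a and Lgals3 have their highest means in adult C3KO arrays, with a wide spread among U2 mice for the first 3 of these.

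Of 10 markers of fat cells 1 rose and none fell. Cidec, a protein of lipid droplets, read 5.57, 4.63, 5.01 and 5.23 in young mice and 5.68, 6.74 and 7.69 (lowest, median, highest) in adults, without overlap. The rise was 1.67 ± 0.41 (adjusted p = 0.0454), and it passed in 2 of the 11 fits without 1 array. Lep, which encodes leptin, read 4.51 to 5.20 in young mice and 5.57, 7.19 and 8.24 in adults, also without overlap, a difference of 1.93 ± 0.49 (adjusted p = 0.0561). Adipoq, the adiponectin gene, overlapped between the ages, 9.29 to 10.16 against 9.43 to 11.23, and differed by 0.85 (adjusted p = 0.403). The median of the 10 markers was 0.53, 9 of 10 were above 0, and their mean level was 7.77 to 8.96 in adults and 7.50 to 8.08 in young mice. How much of these differences comes from fat attached to or within the muscle was not tested. Of 27 genes of fatty acid use none passed, 26 were above 0 and the median was 0.32. That median was 0.125 for the U2 mice and 0.457 for the Q2 mice.

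Among the other large falls, Aplnr, the apelin receptor of endothelial cells, read 7.80, 8.51, 8.26 and 7.46 in young mice, 5.62 to 6.47 in Q2 and 6.47 to 7.62 in U2, a difference of -1.44 ± 0.35 (adjusted p = 0.0429) that passed in 2 of the 11 fits without 1 array. No endothelial marker passed among 13 (median -0.13). Sytl2, a synaptotagmin-like protein of vesicle transport, was the steadier: 6.56, 6.43, 6.23 and 6.20 in young mice against 4.89, 5.31 and 5.57 in adults, a fall by 1.11 on the log2 scale (SE 0.13, adjusted p = 0.000159), and -1.17 within code 1-3 (adjusted p = 0.0048). Ret, the receptor kinase of the glial cell line-derived factors, differed by -1.02 ± 0.22 (adjusted p = 0.0235), with a second probe set of the gene at 0.02. Of the 30 genes with the largest changes 18 have more than 1 probe set, and Ret is the 1 whose probe sets differ in sign. Sizes varied more. Other probe sets showed smaller changes for Ak4 (0.16, 0.25 and 0.64), Npr3 (0.43), Atp13a5 (0.35), Aplnr (-0.52), Pfkfb3 (-0.72) and Iigp1 (-0.96). They showed larger ones for Col1a2 (-1.54), Col3a1 (-1.90) and Kcnab1 (1.37), among others. Sema5a, a semaphorin of axon guidance, differed by -0.99 ± 0.24, and Dkk2, a modulator of Wnt signals, by -1.06 ± 0.24, both with overlapping ages. Basp1, a membrane protein first known from nerve endings, fell from 6.59, 6.68, 6.75 and 6.78 in young mice to 5.38 to 6.44 in adults (-0.97 ± 0.17, adjusted p = 0.00627). Aplnr, Ret, Sema5a, Dkk2 and Basp1 did not pass with the code as a block or among arrays of code 1-3 (adjusted p = 0.0756 or more). Gclm, a subunit of the enzyme that starts glutathione synthesis, was the 1 of 20 antioxidant genes to change (-0.48 ± 0.12, adjusted p = 0.0436). It passed in 3 of the 11 fits without 1 array and did not pass when the code was a block (adjusted p = 0.168).

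Pfkfb3, whose product drives glycolysis through phosphofructokinase, was the 1 of 24 genes of glycolysis and glycogen to change. It read 9.68, 9.19, 10.07 and 9.52 in young mice, 7.24 to 8.01 in Q2 and 8.61 to 9.63 in U2. The Q2 mice lay below all young mice and the U2 mice overlapped them. The difference was -1.37 ± 0.33 (adjusted p = 0.0436), and -0.57 with arrays of code 1-3 alone (adjusted p = 0.695).

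In 34 of the 49 lists no gene passed in either direction, with medians from -0.35 to 0.41. They include 46 genes of oxidative phosphorylation (median 0.05), 19 of the citric acid cycle (0.02), 26 of the proteasome (0.03), 27 ribosomal proteins (0.05), 20 of atrophy and autophagy (0.03), 18 of excitation-contraction coupling (-0.06), 15 of fast fibres (-0.03), 14 satellite cell and myogenic factors (-0.08) and 13 of the dystrophin complex and limb girdle dystrophies (-0.07). In the last list Sspn, sarcospan, a membrane partner of dystrophin, came nearest, at -0.43 (adjusted p = 0.0531). In a simulation of this comparison with 11915 genes, 66% of true changes of 0.5 log2 units and 93% of those of 1 unit were recovered. It used randomly chosen genes and independent normal noise, without effects of the code or of single mice. These shares therefore do not hold for genes that vary widely between mice, such as Csrp3, whose difference of 1.81 did not pass. Changes in these lists were not detectable with certainty in 7 and 4 arrays.

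Wild type quadriceps allowed the same ages to be compared on arrays that share no mouse with the C3KO arrays. Both comparisons come from 1 fit with a shared spread per gene. A gene of low spread can thus pass more easily in both, and the overlap is not fully independent. There 642 of 11915 genes changed (5.39%), 293 of them lower in adults (2.46%), and 20.1% of all genes had an unadjusted p under 0.05. In wt the actin control difference was less even: 0.34, 0.11, 0.45 and 0.55 in young F4-1 to F4-4, and 0.09 to 0.23 in adults. With this difference as a covariate 243 genes passed, 213 of them among the 642, and the part of RNA integrity was not tested. Of the 137 genes of C3KO mice, 49 also passed in the same direction in wt (35.8% of the C3KO genes and 7.63% of the wt genes), 3 passed in the opposite direction, and 114 had the same sign. Of the 8 fibrillar collagen genes that fell, 7 also passed in wt, and Col5a3 did not (-0.53, adjusted p = 0.134). Actc1, Dkk3, Amy1, Npr3 and Kcnab1 passed in both: Col1a1 fell by 1.36, Col1a2 fell by 1.17, Col3a1 fell by 1.15 and Actc1 changed by -1.96 in wt, while Dkk3 rose by 1.66, Amy1 by 1.20, Npr3 by 1.51 and Kcnab1 by 1.21. In the fibrillar collagen list 11 of 26 genes fell in wt, with a median of -0.54, and none of the 26 differed in its age change between the genotypes at an adjusted p under 0.05. In the simulation this test of the difference recovered 35% of true changes of 0.5 log2 units and 83% of those of 1 unit. A gene that did not pass is therefore not shown to change alike in both genotypes.

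**Figure D5:**
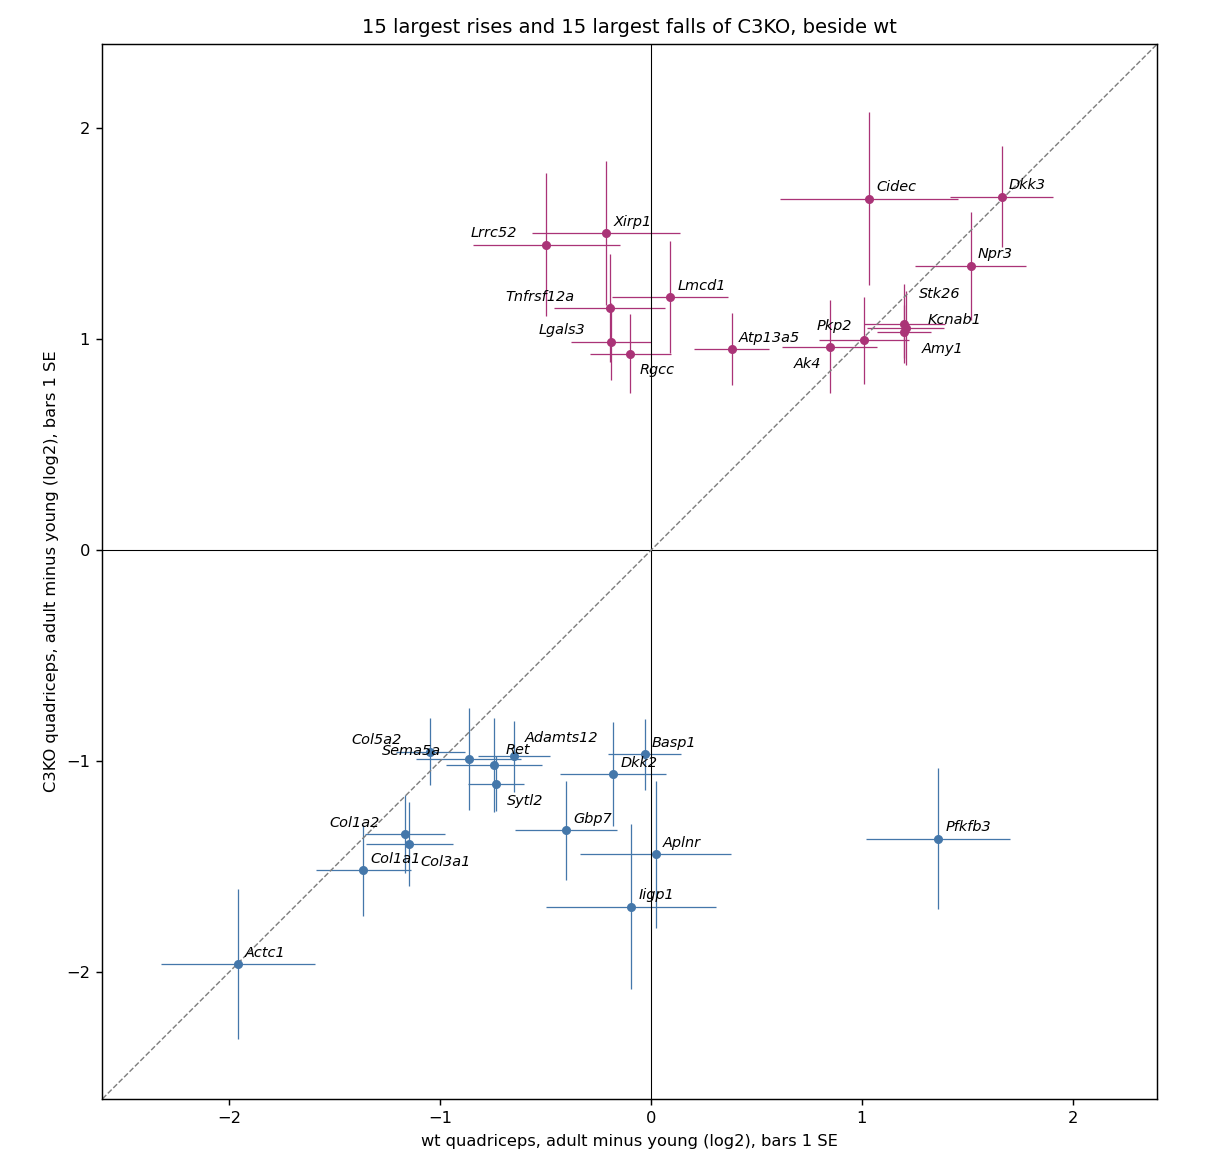
Adult minus young log2 change in C3KO quadriceps (vertical axis) against that in wt quadriceps (horizontal axis) for the 15 largest rises and 15 largest falls of C3KO mice, with bars of 1 SE and a dashed line of equal change. Collagens, Actc1, Dkk3, Npr3, Amy1 and Kcnab1 lie near the line, Xirp1, Lrrc52, Lmcd1, Tnfrsf12a, Lgals3, Rgcc, Basp1, Aplnr and Iigp1 have wt changes between -0.50 and 0.09, and Pfkfb3 has opposite signs.

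The difference between the genotypes in the age change was tested in the same fit, and 45 genes passed (0.378%), 25 with the higher and 20 with the lower change in C3KO mice. Of the adults, 4 of 7 C3KO and 1 of 6 wt arrays carry code 1-1. With that code as a block 18 genes passed, 15 of them among the 45, and with code 1-3 arrays 13 passed, 9 of them among the 45. With the actin difference as a covariate 52 passed, 31 of them among the 45. For 36 of the 45 the age change passed in wt alone, for 2 in C3KO alone, for 3 in both and for 4 in neither. All wt young mice carry the prefix F4, so their values enter every such difference, and the count moved with single mice. It was 9 without J4-1, 19 without J4-2, 27 without Q2-3, 28 without Q2-4 and 75 without U2-3. Among wt mice it was 10 without X2-2, 28 without W2-1, 21 without F4-1, 20 without F4-2, 68 without F4-3 and 15 without F4-4. Among the 137 genes 5 passed this test. Pfkfb3 fell in C3KO and rose by 1.36 in wt (9.06 to 10.19 in wt adults, 7.73 to 8.59 in wt young), a difference between genotypes of -2.73 (adjusted p = 0.0126). Lgals3 changed by -0.19 in wt (adjusted p = 0.632), a difference of 1.18 (adjusted p = 0.049), and Ifi47 by 0.19 in wt, a difference of -0.78 (adjusted p = 0.0401). Nudt18, a nucleotide hydrolase, rose by 0.82 in C3KO and fell by 0.73 in wt, a difference of 1.54 (adjusted p = 0.00993). For Hspa1l, a chaperone of the heat shock family, the difference was 1.10 (adjusted p = 0.0126). Several strain and interferon genes that passed in C3KO and not in wt did not pass this test of the difference: Xirp1 differed from wt by 1.72 (adjusted p = 0.138), Tnfrsf12a by 1.34 (adjusted p = 0.114), Lmcd1 by 1.11 (adjusted p = 0.228), Iigp1 by -1.60 (adjusted p = 0.24) and Gbp7 by -0.93 (adjusted p = 0.261).

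Heat shock genes had opposite medians in the genotypes. In C3KO mice 1 of 23 rose, Hspa1l, from 6.87, 6.64, 6.79 and 6.81 in young mice to 7.11 to 7.67 in adults (0.63 ± 0.13, adjusted p = 0.0217), the median was 0.22 and 21 of 23 were above 0. In wt 10 of 23 fell and the median was -0.32. The difference passed for 5 of the 23, among them Hspa1b (4.31, adjusted p = 0.016) and Hspa1a (4.04, adjusted p = 0.0271), near-identical copies of the inducible HSP70 gene whose probe sets may share signal. Hspa1b read 6.06, 6.78, 6.30 and 6.96 in young C3KO, 7.16 to 8.91 in adult C3KO, 7.97 to 12.15 in young wt and 6.11 to 7.93 in adult wt mice. Young wt mice thus held the highest values, and the C3KO change itself, 1.53, did not pass in the fit of 4 groups (adjusted p = 0.216). With the C3KO groups fitted alone it passed (adjusted p = 0.0415), as did the change of Hspa1a (adjusted p = 0.0432). Hspb7, a small heat shock protein of muscle, was at 1.34 in C3KO (adjusted p = 0.0589). The immediate early gene Nr4a3, a nuclear receptor induced by exercise, showed the same order: 4.45 to 4.78 in young C3KO, 4.82 to 7.74 in adult C3KO, 5.37 to 8.80 in young wt and 4.24 to 5.73 in adult wt, a difference of 3.93 (adjusted p = 0.0271). Its second probe set had a C3KO change of 0.06, against 1.73 for the one used.

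Among the lower differences, Vegfc, a growth factor of lymphatic vessels, stood at 6.99 to 7.44 in young C3KO and 5.66 to 7.33 in adult C3KO, but at 3.78 to 4.81 in young and 5.72 to 7.34 in adult wt mice (difference -2.48, adjusted p = 0.0106). Sdc4, the cell surface proteoglycan syndecan 4, had 8.46 to 9.33 in young C3KO, 8.36 to 8.96 in adult C3KO, 5.50 to 6.67 in young wt and 6.77 to 8.47 in adult wt mice (difference -1.90, adjusted p = 0.0294). In both genes the young wt mice were the lowest of the 4 groups. The C3KO change itself was -0.40 for each and did not pass.

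Soleus, the slow muscle of the lower leg, was measured in 10 of the same C3KO mice, 6 adult and 4 young. The soleus array of young mouse H4-2 stood apart: its mean over liver genes was 12.74, while the other 9 soleus arrays lay between 3.82 and 4.10. The H4-2 soleus array carries code 1-4 and its quadriceps array 1-3. For Q2-4 the soleus array carries 1-3 and the quadriceps array 1-1, and the part of these codes was not tested. The age change differed between the muscles for 15 of 12033 genes (0.125%), and without H4-2 for 18 of 11999 (0.15%), 12 of them shared. Actc1 fell in quadriceps (-1.98 in these 10 mice) and had 0.55 in soleus, a difference of 2.52 ± 0.31 (adjusted p = 0.0168), and 2.82 without H4-2. Tmem37 had 0.89 in quadriceps and -0.29 in soleus (difference -1.18 ± 0.14, adjusted p = 0.0168, and -1.23 without H4-2). Aldh1a1 had 0.78 and -0.55 (difference -1.33 ± 0.21, adjusted p = 0.0387). Without H4-2 its soleus change was -0.16 and the difference -1.06. The 3 genes keep an adjusted p of 0.0121 or less without H4-2. The largest other differences were those of Ndrg4 (2.93), Amph (2.48), P3h2 (1.90), Mamdc2 (1.85) and Nckap5 (1.70), each higher with age in soleus and between -0.54 and -0.01 in quadriceps. No gene passed when Q2-1, Q2-2, J4-1 or H4-1 was left out (1216 to 1703 genes had an unadjusted p under 0.05 in limma), and the count was 6 without J4-2, 4 without Q2-3, 4 without Q2-4 and 1 without U2-1.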

How the data were processed

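Total RNA of whole muscle was hybridised to 1-colour Affymetrix arrays, and the authors deposited 1 table of log2 values for 45101 probe sets. The submitters' processing notes name MAS5 and RMA without a role or version, so which of them made the values is not given in the sources used here. Control probe sets (64) were left out, as were 932 probe sets with several gene symbols and 9160 with none. A probe set was kept when it exceeded its array's median on at least 4 arrays, and the brightest stood for a gene, leaving 11915 genes.

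The 21 quadriceps arrays with a group entered 1 limma fit (lmFit and eBayes, version 3.58.1, R 4.3.3) of 4 groups, with Benjamini-Hochberg adjustment over all genes. All p-values called adjusted come from limma. Soleus was compared as soleus minus quadriceps within mouse. The fit was tested on simulated data. The 2 arrays of wt mouse M2-1 were left unassigned and entered no comparison. Where the labels do not describe separate litters or hybridisations, p-values measure the spread between these mice.

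Named genes were the 15 largest rises and falls past the threshold, up to 6 members of each described list and the largest differences from wt; exceptions are stated beside them. The members and lists were chosen with earlier results of these data known. Alternatives covered the code, scaling, filter, probe sets, covariate, weights and leaving out each array.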

Additional observations from a re-analysis of the deposited data

Results flagged for a closer look

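One array stood far from the others of its group in 3 of 64 groups of values examined, and chance marks about 1 in 20. Lgals3 read 8.35 in adult Q2-3, with the nearest other adult at 7.72. Rgcc read 9.91 in young H4-2, with the nearest at 9.58. Stk26 read 6.19 in adult U2-2, with the nearest at 7.10.

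Many of the following genes were named because they passed the test of the difference from wt, so their number is not a result. For 19 named genes the age change differed between C3KO and wt quadriceps in limma's test of the difference (adjusted p under 0.05). It was higher in C3KO by 4.31 for Hspa1b, 4.04 for Hspa1a and 1.10 for Hspa1l, chaperones of the HSP70 family. It was higher by 3.93 for Nr4a3, 1.76 for Noct, 1.54 for Nudt18, 1.39 for Pkp4, 1.24 for Icam1, 1.21 for Ctla2a and 1.18 for Lgals3. The difference was -2.73 for Pfkfb3, -2.48 for Vegfc, -1.90 for Sdc4, -1.81 for Sh3rf2, -1.44 for Sox4, -1.03 for Cd274, -1.01 for Blvrb, -0.94 for Fzd7 and -0.78 for Ifi47. The second probe set of Pkp4 had the opposite sign in C3KO (-0.22, against 0.62 for the one used). Cd274 was at or under the median of all 4 young wt arrays and of 3 of 7 adult C3KO arrays, and Icam1 of all 4 young C3KO arrays, so the size of their differences is uncertain. The young wt mice all carry the prefix F4, and their part in these differences was not tested.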

How the results depend on the processing

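The 137 age changes in C3KO kept their sign under every alternative in which the gene was tested, which is partly built in because they were chosen on these arrays. Their number was 107 with the C3KO groups fitted alone (89 of them among the 137), 18 with the code as a block, 13 with arrays of code 1-3 only, 557 with array weights, 9 without the Q2 mice, 251 without the U2 mice, 0 without the J4 mice (783 unadjusted in limma) and 55 without the H4 mice. It ranged from 33 to 191 when each array was left out. Genes that did not pass with the C3KO groups fitted alone include Xirp1 (adjusted p = 0.082), Lmcd1 (0.0732), Tnfrsf12a (0.0732), Pfkfb3 (0.104), Igf1 (0.0772), Iigp1 (0.078), Gbp3 (0.0732), Trim30a (0.0814), Oas1a (0.0911), Col6a3 (0.0732) and Ak4 (0.0622). The wt count of 642 became 404 when fitted alone and 243 with the actin covariate, and ranged from 291 to 709 without 1 array (330 without F4-1, 291 without F4-4). The 45 differences between genotypes became 18 with the code as a block, 13 with code 1-3 only, 70 with quantile normalization, 28 with median centring and 108 with array weights, and ranged from 9 to 75 without 1 array. The 15 differences between muscles became 7 with no filter and ranged from 0 to 22 without 1 mouse. Blvrb, near 0 in C3KO, changed sign: -0.036 without the U2 mice, -0.054 without the J4 mice, and -0.030 to 0.047 without 1 array. Among code 1-3 arrays the technical differences between ages changed sign for actin (6.83e-05), Gapdh (0.025) and the array median (-0.0048), none passing. The causes were not tested. No paired analysis was possible because adult and young arrays come from different mice and the labels give no shared replicate number. The 7 and 4 arrays limit the precision.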
